A study of Mus musculus with 2 samples.

Results

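The box C/D small nucleolar RNA (snoRNA) genes were taken as all genes of GENCODE M21 whose symbol starts with Snord. There were 99 of them, under 98 symbols because Snord80 stands under 2 identifiers, out of 55536 annotated genes. Of the 99, 98 carried the class snoRNA and Snord43 the class miRNA, and the annotation held 1507 snoRNA genes of all kinds. They were examined in RNA from the chromatin fraction of bone marrow-derived macrophages, phagocytes derived in culture from marrow, of the strain C57BL/6J, with no altered allele stated. The cells stood at the 0 minute point of stimulation with 100 ng/ml lipid A, the membrane anchor of bacterial endotoxin, and age was not recorded. Total RNA was depleted of ribosomal RNA and sequenced as 2 biological replicates of 1 group, with an RNA input of 250 ng for replicate 1, 500 ng for replicate 2 and a labelled size range of 250 to 400. The labels give both replicates the same donor entry, so the spread between them may be smaller than that between animals, and RNA input cannot be told apart from replicate. With 1 group there was no condition to test.

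Box C/D snoRNAs are short nuclear RNAs that pair with other RNAs, chiefly ribosomal RNA, and direct methylation of the ribose 2′ hydroxyl at the paired site. A small set acts in cleavage of the ribosomal RNA precursor instead. Most mammalian members lie in introns and are cut from the excised intron of a host transcript, after which fibrillarin, Nop56, Nop58 and Snu13 bind the C and D boxes that close the RNA's ends. The mature particles sit in the nucleolus, and the fraction sequenced here also holds host transcripts that are not yet spliced.

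The members were 64 to 238 bases long, with a median of 84 bases. By annotation, 95 lay within an intron of a gene on the same strand, in 54 distinct hosts, and 4 had no such host. Of these, Snord116l12 lies within the span of Snhg14 like the other Snord116 copies, and Snord13, Snord104 and Snord118 lie within no same-strand gene. The C box was searched as TGATGA starting within the first 20 bases and the D box as CTGA lying within the last 20 bases, both on the RNA strand. Both were found in 68 of 99 members (68.7%), the C box in 70 and the D box in 97, and 87 held the shorter TGATG near the start. Of 7696 other annotated transcripts in the same length range, 3.16% held both boxes, and of the 6300 that were not snoRNAs 0.0952% did. None of the 42 Snora genes, which are named for the other main snoRNA class (box H/ACA), held both. A match describes letters in a window only.

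The sequences below, read from the GENCODE M21 transcripts, are those on which the values turn: the 5 longest members, which alone had counts in the gene table; the nearly identical pair Snord14c and Snord14d; Snord21, the most counted of the shorter members; and Snord116l1, from a family known for its expression in brain. Capitals mark the C box near the 5′ end and the D box near the 3′ end. Snord22 and Snord118 have no exact TGATGA in the window.
Snord17: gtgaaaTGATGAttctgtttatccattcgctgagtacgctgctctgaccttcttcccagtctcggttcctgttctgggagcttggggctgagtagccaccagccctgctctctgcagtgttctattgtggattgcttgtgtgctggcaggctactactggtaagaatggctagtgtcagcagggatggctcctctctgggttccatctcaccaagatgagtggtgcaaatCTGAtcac
Snord15a: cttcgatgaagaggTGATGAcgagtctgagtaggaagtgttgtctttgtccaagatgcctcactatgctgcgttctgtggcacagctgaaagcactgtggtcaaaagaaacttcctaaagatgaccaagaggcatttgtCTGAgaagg
Snord15b: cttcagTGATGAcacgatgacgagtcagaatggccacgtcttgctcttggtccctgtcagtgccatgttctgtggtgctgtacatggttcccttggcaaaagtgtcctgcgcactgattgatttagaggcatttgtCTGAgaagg
Snord118: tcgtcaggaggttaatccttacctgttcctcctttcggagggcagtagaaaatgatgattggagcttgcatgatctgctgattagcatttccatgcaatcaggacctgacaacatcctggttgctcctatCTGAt
Snord22: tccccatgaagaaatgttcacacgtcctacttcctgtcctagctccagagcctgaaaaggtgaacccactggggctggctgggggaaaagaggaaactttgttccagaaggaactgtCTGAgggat
Snord14c: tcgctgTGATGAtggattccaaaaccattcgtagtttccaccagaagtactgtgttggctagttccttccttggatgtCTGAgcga
Snord14d: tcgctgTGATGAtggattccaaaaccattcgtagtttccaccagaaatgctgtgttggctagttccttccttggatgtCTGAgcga
Snord21: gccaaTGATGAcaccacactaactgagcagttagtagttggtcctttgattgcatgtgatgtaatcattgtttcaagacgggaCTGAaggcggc
Snord116l1: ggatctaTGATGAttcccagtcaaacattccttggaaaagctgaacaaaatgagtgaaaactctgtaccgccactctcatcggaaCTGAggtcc

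On mm10, Snord17 (ENSMUSG00000077714.1) lies at chr2:144265979-144266216 on the minus strand in an intron of Snx5, a sorting nexin gene. Snord15a (ENSMUSG00000065822.1, chr7:99482785-99482932) and Snord15b (ENSMUSG00000064966.1, chr7:99479563-99479707) are both on the minus strand in introns of Rps3, which encodes a protein of the small ribosomal subunit. They were 66.0% identical over 162 alignment columns. Snord22 (ENSMUSG00000065087.1) lies at chr19:8725866-8725991 on the plus strand in an intron of Snhg1, a long non-coding host, and Snord118 (ENSMUSG00000064899.1) at chr11:69073427-69073561 on the plus strand with no same-strand host intron. Snord14c (chr9:40803583-40803668) and Snord14d (chr9:40803995-40804080) are on the plus strand in introns of Hspa8, the constitutive heat shock protein 70 gene. They were 97.7% identical, so how reads were split between them is uncertain. Snord21 (ENSMUSG00000064453.1) lies at chr5:107904555-107904648 on the plus strand in Rpl5, and Snord116l1 at chr7:59894620-59894713 on the minus strand in Snhg14.

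Each library had a gene table, a first transcript table and a second transcript table. The gene and first transcript tables share the column layout of RSEM and the second has that of kallisto. For all 99 members the counts in the gene table equalled those in the first transcript table, within 0.005. Annotated genes summed to 10933708 and 14168886 expected counts in the gene table, and to 19156113 and 24646446 estimated counts in the second table, in replicates 1 and 2. In the gene table all 8 macrophage markers reached 1 TPM (an abundance made from counts divided by length and scaled to a fixed sum) in both libraries, at means of 13.7 to 176 TPM and summing to 721 and 609 TPM. None of 19 markers of other cell types did: 12 were at 0 in both libraries, and together they summed to 1.1 and 0.58 TPM. Of the 19, 3 reached 1 TPM in both libraries of the second table, namely Cd3d (8.34 and 10.8 TPM), Pecam1 (4.88 and 6.64 TPM) and Col1a1 (1.02 and 1.74 TPM), and all 19 summed to 16.7 and 21.4 TPM. Their part in the members' second table values was not tested. Of the neuronal markers, Rbfox3 averaged 0.07 TPM and Snap25 and Syt1 were at 0 in the gene table.

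In the gene table only the longest box C/D members had reads. At least 10 expected counts in each library were reached by 4 of 99 members (4.04%), against 26.2% of all annotated genes and 7 of the 42 Snora genes. Of the other 95, Snord118 held 2 counts in each library and 94 were at 0. Those 94 were the members of 111 bases or less, and each had an effective length of 0 in both libraries. Effective length is the number of positions at which a fragment of the library's size could start, and the value of 0 was given to every transcript up to 123 bases in replicate 1 and 125 bases in replicate 2. In all, 4584 annotated genes had an effective length of 0 in both libraries, and 14 of them, of 107 to 122 bases, held any count. Of the members, 88 were shorter than 107 bases. A 0 in this table therefore cannot be read as absence of these members' RNA. The Snora genes, with a median length of 132.5 bases, had an effective length above 0 in 41 of 42 cases. In the second table members' effective lengths ran from 13.5 to 82.8 bases, with a median of 15.0, and no member was at 0.

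**Figure D1:**
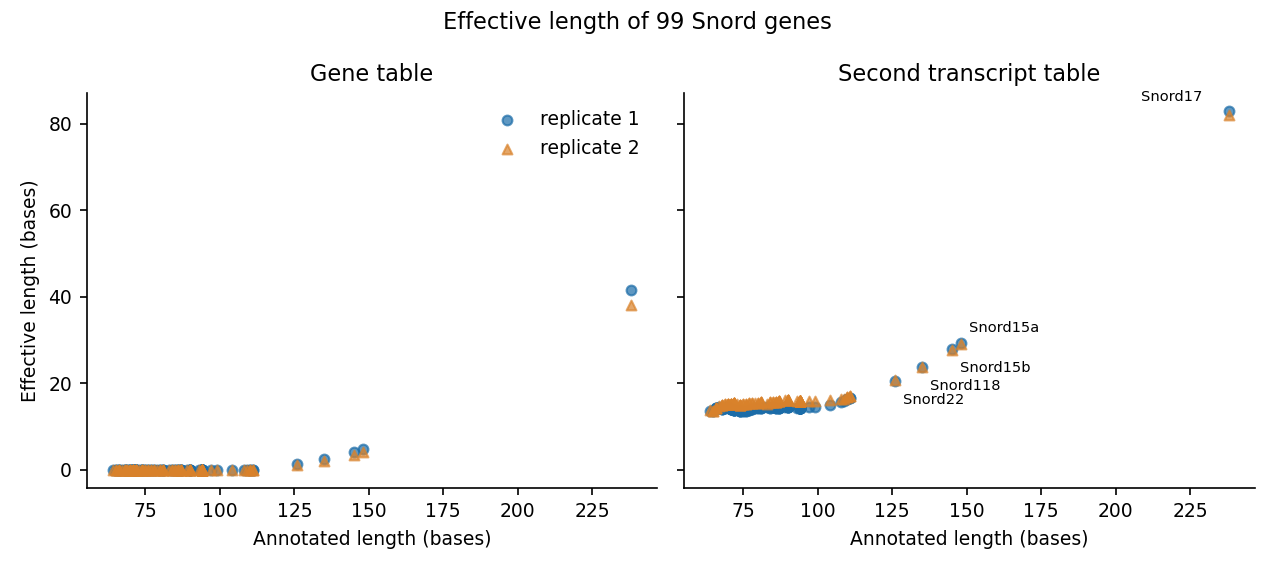
Effective length (bases, vertical) against annotated length (bases, horizontal) for the 99 Snord genes, in the gene table on the left and the second transcript table on the right; circles are replicate 1 and triangles replicate 2. Members of 111 bases or less lie at 0 on the left and near 15 bases on the right, and the 5 members of 126 bases or more rise above 0 in both.

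The 4 members above the minimum rested on 435 to 2301 counts a library. Snord17, which in human cells guides methylation of large ribosomal subunit RNA, held 1723 expected counts in replicate 1 and 2301 in replicate 2. Snord15b, of the U15 family that also guides methylation of large subunit RNA, held 1371 and 2060 counts, and its relative Snord15a held 435 and 488. Snord22, the U22 RNA, needed in frog oocytes for maturation of small subunit RNA, held 842 and 1009 counts. Within each library the order of these 4 was Snord17, Snord15b, Snord22, Snord15a, and the ranges of neighbours in that order overlapped only between Snord17 and Snord15b. Snord118, the U8 RNA, needed in frog oocytes and human cells for maturation of the large subunit RNAs, held 2 counts in each library, under the 3 counts that a count of 0 allows. Its counts in the second table were 24 and 53.

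Box C/D members made up a small share of reads and a large share of gene table TPM. Their expected counts were 4373 in replicate 1 and 5860 in replicate 2, or 0.0400% (95% Wilson interval 0.0388 to 0.0412) and 0.0414% (0.0403 to 0.0424) of the counts on annotated genes. Their share of TPM was 10.9% and 11.2%. Snord22 alone held 6.41% and 6.26% of all TPM, at 64057 and 62565 TPM. Snord15b stood at 31724 and 37694 TPM, Snord15a at 8759 and 7741 TPM, Snord17 at 4009 and 3887 TPM and Snord118 at 79.7 and 64.0 TPM. So the order by TPM was Snord22, Snord15b, Snord15a, Snord17, and Snord17 was highest by counts and lowest of these 4 by TPM.

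The effective lengths behind these values were close to a single base for Snord22. They were 1.27 and 1.04 bases for Snord22, 4.17 and 3.52 for Snord15b, 4.79 and 4.06 for Snord15a and 41.5 and 38.2 for Snord17. A single count of Snord22 was worth 76.1 and 62.0 TPM, and one of Snord17 2.33 and 1.69 TPM. Snord22 ranked 2 and 4 among all annotated genes by TPM but 1985 and 2342 by counts, and 32 and 42 by counts per annotated base. Snord15b ranked 6 in both libraries by TPM, 1144 and 1063 by counts, and 18 and 17 by counts per annotated base. Snord17 moved little between the scales that divide by length, with ranks of 35 and 32 by TPM and 27 and 35 by counts per base.

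Both tables gave the 4 highest of the long members similar unscaled counts and very different TPM. Totals on annotated genes were unlike, at 10933708 and 14168886 counts in the gene table and 19156113 and 24646446 in the second. Gene table counts were 0.796 and 0.786 of second table counts for Snord17, 0.915 and 0.882 for Snord15b, 0.816 and 0.752 for Snord15a and 0.760 and 0.688 for Snord22. Gene table TPM over second table TPM was 28.3 and 20.5 for Snord22, 14.1 and 10.3 for Snord15b, 11.5 and 8.02 for Snord15a and 3.65 and 2.51 for Snord17. Snord118 was the exception, with gene table counts of 0.0833 and 0.0377 of its second table counts. In the second table Snord22 stood at 2266 and 3057 TPM and Snord15b at 2246 and 3643 TPM, so which was higher differed between the libraries. The share of all members in second table TPM was 1.04% and 1.52%, on 0.0349% (0.0341 to 0.0358) and 0.0388% (0.0380 to 0.0395) of its counts. These TPM shares depend on each table's lengths for short RNAs and do not measure how much snoRNA the fraction held.

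**Figure D2:**
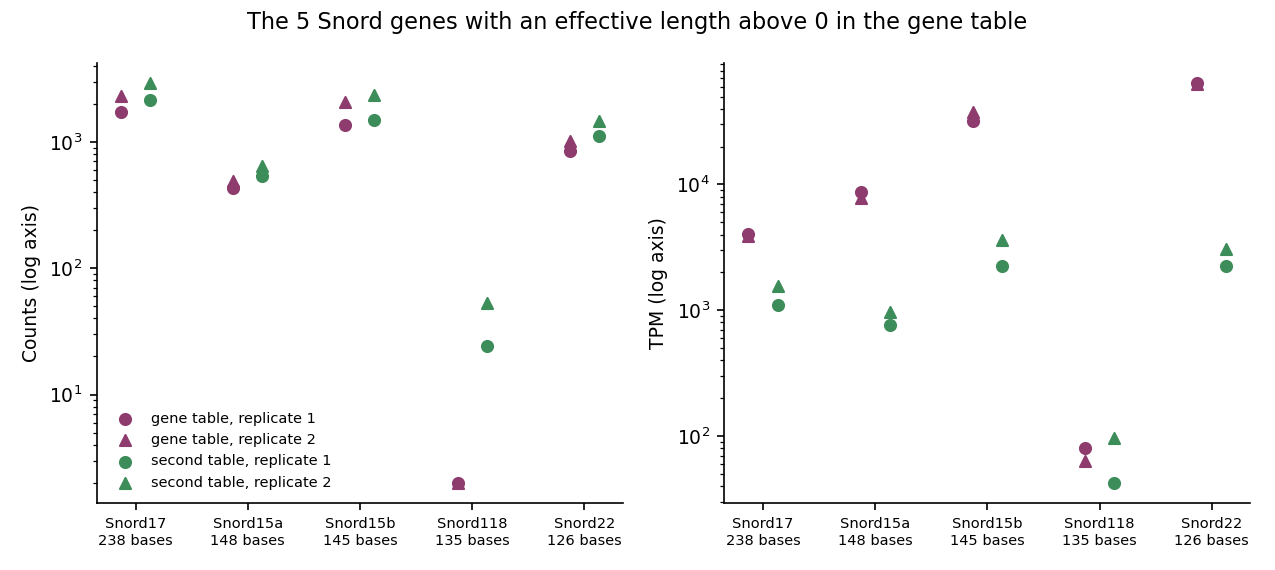
Counts (left, log axis) and TPM (right, log axis) of the 5 Snord genes of 126 bases or more, ordered by length; purple is the gene table, green the second transcript table, circles replicate 1 and triangles replicate 2. Unscaled counts of the 4 highest nearly coincide between tables. Their gene table TPM lies above second table TPM by a factor that runs from 3.65 and 2.51 for Snord17 to 28.3 and 20.5 for Snord22.

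Many of the shorter members had reads in the second transcript table. Of the 99, 64 had some count in at least 1 library, 35 had none, and 32 (32.3%) reached 10 counts in each library, against 42.6% of all annotated genes. The 32 included 27 members whose effective length in the gene table was 0. Of the 42 Snora genes, 22 did. Members' counts summed to 6694 in replicate 1 and 9553 in replicate 2, of which 79.6% and 77.8% lay on the 5 long members and 1365 and 2119 counts on the other 94. A count of 0 allows up to 3 counts when counting error alone is considered, a share of 1.57e-05% and 1.22e-05% of this table's counts. That limit does not bound reads the table assigned to another transcript.

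Snord21 was the highest of the shorter members, with 225 counts in replicate 1 and 490 in replicate 2. Snord83b, in an intron of the large subunit protein gene Rpl3, followed with 118 and 158, and its neighbour Snord43 in the same host held 48 and 69. Snord49b and Snord49a, in the long non-coding host 2410006H16Rik and 69.2% identical to each other, held 100 and 104 and 58 and 76 counts. Snord65, the other member of 2410006H16Rik, held 13 counts in each library. Each of these hosts thus held members whose ranges did not overlap. Snord71, in the clathrin adaptor gene Ap1g1, held 71 and 99 counts, and Snord89, in Gm15832, held 64 and 100. Snord104, which has no same-strand host, held 34 and 101. Snord71, Snord89, Snord104 and Snord49a overlapped in range, so their order is not resolved.

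**Figure D3:**
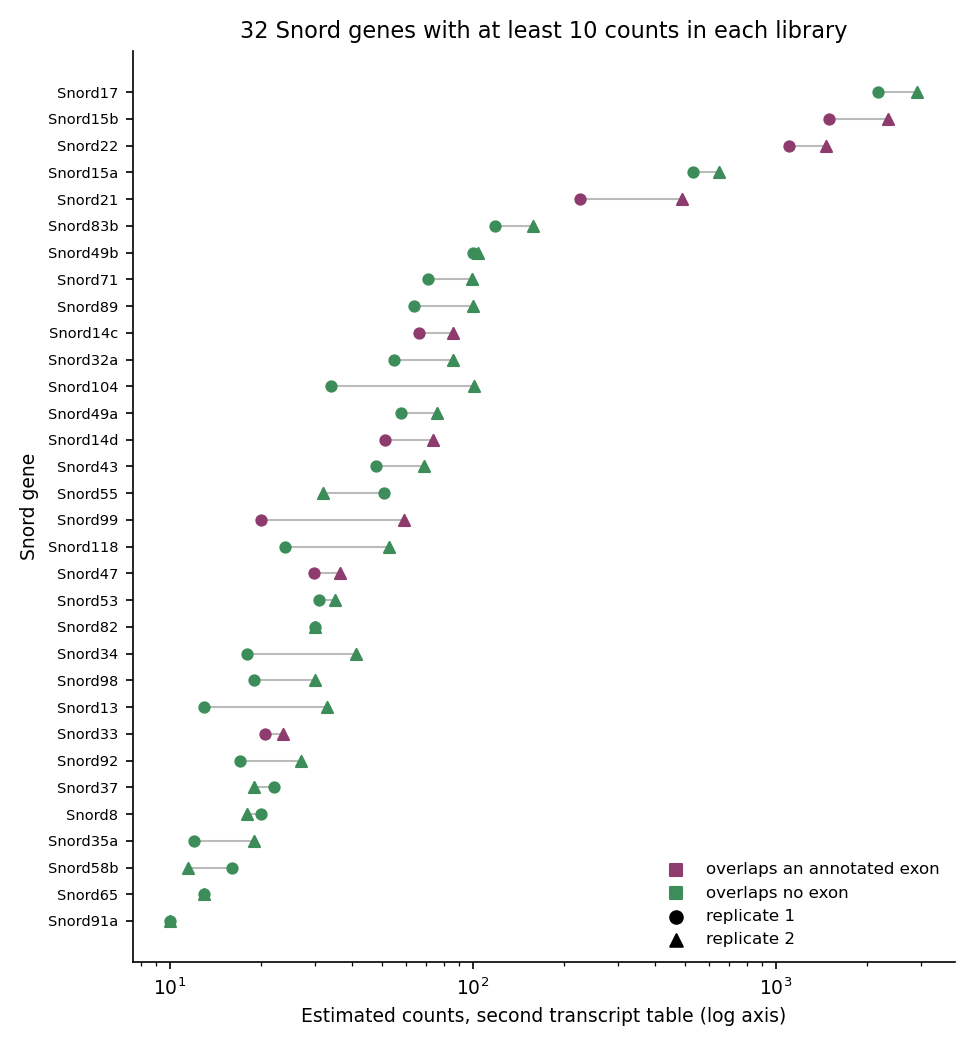
Estimated counts in the second transcript table (horizontal, log axis) of the 32 Snord genes with at least 10 counts in each library, sorted by mean; circles are replicate 1, triangles replicate 2, purple marks overlap with an annotated exon of another same-strand transcript and green none. Snord17, Snord15b, Snord22 and Snord15a lie above 500 counts, Snord21 at 225 and 490, and the rest at or below 158.

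Among the members on the fixed list for processing of the ribosomal RNA precursor, Snord22 was far above the others in reads. The annotation had no gene named Snord3, the U3 RNA family. In the second table Snord22 held 1108 counts in replicate 1 and 1467 in replicate 2. Snord14c and Snord14d, copies of U14, which also guides methylation of small subunit RNA, held 66.2 and 86.0 and 51.2 and 73.9 counts. Snord14e, 79.6% identical to Snord14c, held 5.12 and 5.37 counts, and Snord14a, in an intron of Rps13 and 78.5% identical to Snord14c, was at 0 in both libraries. Snord118 (U8) held 24 and 53 counts and Snord13 (U13) 13 and 33. Replicate 2 was the higher library for each member of this group that had reads, as it was for total counts.

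The 4 members in introns of Rpl13a, a ribosomal protein gene whose snoRNAs are known from work on lipid toxicity, all had reads. Snord32a held 55 counts in replicate 1 and 86 in replicate 2, Snord34 18 and 41, Snord33 20.6 and 23.5, and Snord35a 12 and 19. Together they summed to 106 and 170 counts. Snord32a was above the other 3 in both libraries, and Snord34 overlapped both Snord33 and Snord35a in range. Gas5, also host to 4 members, held 30.7 and 36.4 counts over them, of which Snord47 took 30.0 and 36.4 while Snord78 was at 0. The other 2 are the identifiers of Snord80, which cover nearly the same bases (chr1:161037601-161037681 and chr1:161037604-161037680). In the gene table all 8 were at 0, although Rpl13a stood at 51.8 and 40.1 TPM and Gas5 at 147 and 140 TPM.

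The Snord116 family, known from the imprinted Prader-Willi region and from neurons, had no read in any table. Its 17 annotated copies had 4 distinct sequences, and Snord116l1 and Snord116l2 were identical. By the host rule 16 of the copies belonged to Snhg14, the long host transcript of that region. Snhg14 itself had 415 and 617 expected counts and stood at 13.3 and 13.6 TPM. Snord64 and Snord107, assigned to Gm38393 in the same region, were also at 0, and so was Gm38393 in the gene table, while in the second table Gm38393 held 22.9 and 32.1 counts (0.258 and 0.373 TPM). No gene named Snord115 was in the annotation. For copies with shared sequence a count of 0 in the second table is a sum over the family, and it was 0 of 19156113 and 0 of 24646446 counts.

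Hosts were classed by symbol, with Rpl or Rps and a digit taken as ribosomal protein genes. Rack1, host to 2 members at 0 in the second table, therefore fell among other protein-coding hosts. The share of all annotated genes at 10 counts in each library of that table was 42.6%, as given above. Of the 22 members in ribosomal protein genes so classed, 11 reached that minimum. Members in other protein-coding hosts did so in 11 of 33 cases, those in long non-coding hosts other than the Snhg14 region in 7 of 22, those in Snhg14 and Gm38393 in 0 of 18, and those without a host in 3 of 4. Median host levels in the same table were 15.1 and 22.1 TPM for the ribosomal protein class, 24.2 and 35.3 TPM for the other protein-coding class and 10.5 and 14.6 TPM for the long non-coding class. Members of 1 host are not independent, and the difference between classes was not tested.

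Members under an annotated exon had lower median counts in the second table than members in plain intron, while the summed counts of the classes were close. In all, 41 members overlapped an annotated exon of another same-strand transcript, in 32 cases one of the class retained intron, and 58 did not. Hosted members outside Snhg14 and Gm38393 were compared, 39 with an overlap and 38 without. Of the 39 with an overlap 8 reached 10 counts in each library and 14 were at 0 in both, against 21 and 2 of the 38 without, and 42.6% of all annotated genes reached the minimum. Summed counts were 3074 and 4702 with an overlap, against 3548.5 and 4665 without, most of them on the few highest members. Median counts were 0.719 and 1.32 with an overlap, against 12.5 and 16.5 without. The hosts themselves stood at medians of 16.8 and 29.2 TPM with an overlap and 18.2 and 27.3 TPM without. The counts of the classes overlapped over nearly their whole range, and members of 1 host were in some cases in both. The difference between the classes was not tested.

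The longer transcripts over the overlapped members held counts of their own, in both libraries of the first transcript table for 39 of the 41. The 14 members at 0 lay under transcripts that held 15.2 to 1013 expected counts in replicate 1 and 20.9 to 1419 in replicate 2 of the first transcript table, over their whole length. In that table these 14 members had an effective length of 0. Such counts were not particular to members without reads in the second table. The transcript over Snord14c held 301 and 516 expected counts, and that over Snord21 held 120 and 152. In the second table Snord78 was at 0 while the Gas5 transcripts over it held 1142 and 1645 counts. Snord96a and Snord95 were at 0 there while the transcripts of Rack1, a small subunit protein gene, over them held 981 and 1257 counts and 624 and 816 counts. Snord2 was at 0 while those of Eif4a2, a translation initiation factor gene, held 242 and 310. The members of Rps3 went the other way: Snord15b, with an overlap, held 1499 and 2337 counts, and Snord15a, without one, 533 and 649. Snord22 and Snord21 also have an overlap and were among the 5 highest.

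**Figure D4:**
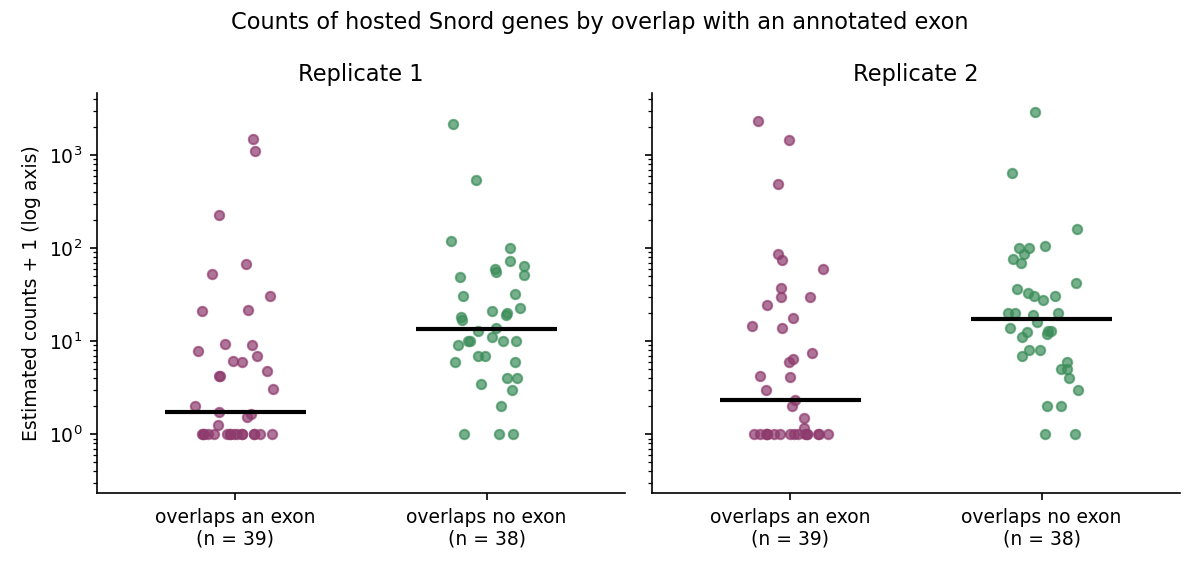
Estimated counts plus 1 (vertical, log axis) of hosted Snord genes outside Snhg14 and Gm38393 in the second transcript table, by overlap with an annotated exon of another same-strand transcript, in replicate 1 (left) and replicate 2 (right); each point is a gene and the bar is the median. The median is 0.719 and 1.32 counts for the 39 genes with an overlap and 12.5 and 16.5 for the 38 without, and both classes reach above 1000 counts in at least 1 library.

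A read from an unspliced host intron has no annotated host transcript to match where no exon overlaps the snoRNA. Reads of mature snoRNA and of unspliced host RNA over the same bases therefore cannot be told apart in these tables, and the labels do not say whether strand was kept. How much each contributed to a member's counts was not tested.

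Members with at least 10 counts in each library mostly stood above their hosts, by very different amounts, whereas those with fewer mostly stood below. The count minimum itself favours this split, as set out below. In the gene table the log2 ratio of member TPM to host TPM was 11.10 ± 0.22 for Snord22 over Snhg1 (SD, n = 2), 11.07 ± 0.41 for Snord15b over Rps3, 9.00 ± 0.10 for Snord15a over Rps3 and 3.85 ± 0.11 for Snord17 over Snx5. Per annotated base, which avoids the short effective lengths, the log2 ratios were 4.60 ± 0.0032, 5.98 ± 0.23, 4.08 ± 0.069 and 1.60 ± 0.027 in the same order. The hosts stood at 32.3 and 25.6 TPM for Snhg1, 18.03 and 14.4 TPM for Rps3 and 294 and 256 TPM for Snx5. The median log2 ratio of the 4 was 10.03 by TPM and 4.34 per annotated base. All 4 were above their hosts on either scale and in both libraries. The longer transcripts over Snord15b held 280 and 393 expected counts, beside 404 and 510 for Rps3. Those over Snord22 held 309 and 408, beside 362 and 475 for Snhg1. Member and host may therefore not be separate measures for Snord15b and Snord22.

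In the second table, a set of 29 hosted members in 20 hosts had 10 counts in each library, and 25 of them were above their host in mean log2 TPM. The median log2 ratio was 1.49, from -1.39 for Snord8 to 7.90 for Snord15b. After Snord15b (7.90 ± 0.17) came Snord22 (7.13 ± 0.025) and Snord15a (6.16 ± 0.087), and differences between these 3 were larger than their spreads between libraries. Snord21 over Rpl5 was next at 4.76 ± 0.17. At the low end stood Snord8 in Chd8, a chromatin remodeller gene, at -1.39 ± 0.34, with 51.5 and 46.6 TPM for Snord8, against 114 and 144 TPM for Chd8. Snord35a in Rpl13a (-0.47 ± 0.11) and Snord98 in Ccar1 (-0.15 ± 0.0036) were the next lowest. A filter on reads of the member keeps those that are high. At the short effective lengths it also sets a floor: 10 counts of Snord91a in each library came to 29.2 and 27.2 TPM. This was above the median host levels given above, except that of the other protein-coding class in replicate 2. How often members exceed their hosts therefore cannot be read from the filtered set. Of the 32 hosted members with some reads that did not pass the filter, 11 were above their host, with a median log2 ratio of -0.61.

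Host level and member level showed little relation across these 29 members on the log2(TPM + 1) scale, with Pearson's r of -0.035 and Spearman's rho of -0.075. For the 21 of them that overlap no exon, in 15 hosts, r was 0.24 and rho 0.14. Without a filter on counts, the 38 members outside Snhg14 and Gm38393 that overlap no exon, in 30 hosts, gave r of 0.58 and rho of 0.46. That set leaves out the 16 Snord116 copies in Snhg14, all at 0. Points in each set share libraries and in part hosts, and the sets differ in which members enter, so these are descriptions only. Rps3 and Snx5 show the range. Snx5 was the higher host by more than 10-fold, at 385 and 561 TPM, against 10.2 and 14.0 TPM for Rps3, while Snord17 held 1098 and 1548 TPM, against 2246 and 3643 TPM for Snord15b.

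**Figure D5:**
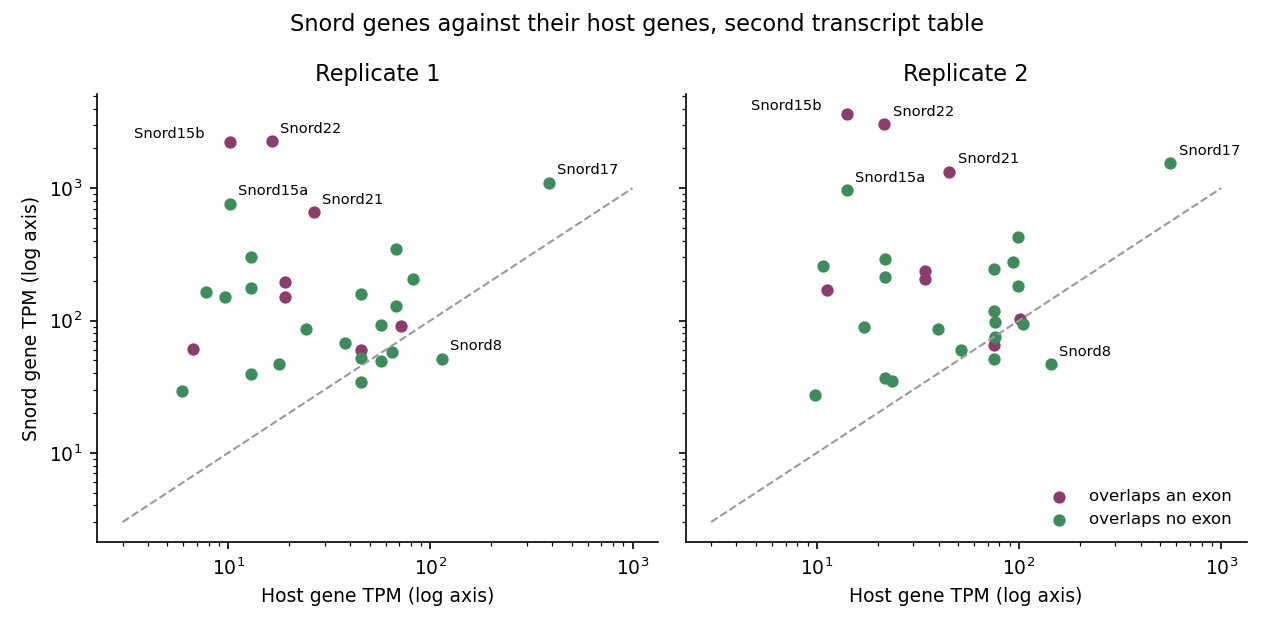
TPM of a Snord gene (vertical, log axis) against TPM of its host gene (horizontal, log axis) in the second transcript table, for the 29 hosted Snord genes with 10 counts in each library, in replicate 1 (left) and replicate 2 (right); purple marks overlap with an annotated exon, green none, and the dashed line equality. Points lie mostly above the line, Snord15b and Snord22 highest over low hosts and Snord8 below its host.

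The 4 members with the most reads differed little between the libraries. On TMM-scaled counts (edgeR's trimmed mean scaling) plus 0.5, the log2 ratio of replicate 2 over replicate 1 in the gene table was 0.099 for Snord15b, -0.071 for Snord17, -0.23 for Snord22 and -0.32 for Snord15a. Their median was -0.15, against 0.016 for the 15193 genes that averaged 10 counts or more and -0.24 for those of them under 300 bases. None of the 4 was past 2-fold, against 2.85% of all genes in either direction. In the second table the 40 members that averaged 10 counts or more had a median of 0.047, against 0.0013 for 24516 genes, and ran from -1.14 to 3.03. Of the 40, 5 were past 2-fold higher in replicate 2, against 1.04% of all genes, and 1 was past 2-fold lower, against 1.46%. Among the 1170 genes under 300 bases the shares were 3.16% higher and 4.87% lower. None of the 53 hosts measured there was past 2-fold.

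Those past 2-fold held at most 101 counts in a library. Snord50b in Snhg5 had 28.8 counts in replicate 2 and 2.08 in replicate 1, a log2 ratio of 3.03 (95% exact binomial interval for counting error 1.40 to 6.49). It was 98.6% identical to its neighbour Snord50a, which held 13.4 counts in replicate 2 and 3.24 in replicate 1, so the split is uncertain. In replicates 2 and 1, Snord73a had 19 and 5 counts and Snord66 29 and 8, with log2 ratios of 1.35 (-0.020 to 3.23) and 1.32 (0.22 to 2.72). Snord104, with 101 and 34 counts in replicates 2 and 1, had 1.08 (0.52 to 1.70), and Snord99, with 59.4 and 20.0 counts, had 1.07 (0.33 to 1.89). Snord55, with 32 counts in replicate 2 and 51 in replicate 1, had -1.14 (-1.83 to -0.48). With a mean of 50 counts or more the largest after Snord104 were Snord21 at 0.64 (0.42 to 0.88) and Snord15b at 0.16 (0.070 to 0.26). The smallest were Snord49b at -0.42 (-0.83 to -0.0090), Snord15a at -0.19 (-0.36 to -0.024) and Snord14c at -0.10 (-0.57 to 0.39). These intervals cover counting of reads in these 2 libraries only, and such reads, without molecular identifiers, need not be separate molecules. The relatives Snord15a and Snord15b, in the same host, thus lay on either side of 0 in both tables.

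The proteins that build and mature box C/D particles had transcripts in this fraction. All 5 particle genes reached 1 TPM in both libraries of the gene table: Nop56 at 29.3 ± 7.08 TPM, Fbl, the methyltransferase fibrillarin, at 19.2 ± 3.10, Nop58 at 9.42 ± 0.50, Rrp9, specific to the U3 particle, at 8.82 ± 0.76 and Snu13 at 5.86 ± 0.82 (SD, n = 2). All 12 genes of particle assembly and snoRNA processing did too, from 1.96 ± 0.34 TPM for Dbr1, the enzyme that opens intron lariats, to 51.7 ± 1.97 TPM for Xrn2, a nuclear 5′ to 3′ exonuclease. Exosc10, a nuclear exosome subunit, stood at 19.6 ± 1.03 TPM. Each of these particle, assembly and processing genes also held at least 10 expected counts in each library, as did 26.2% of all annotated genes. The share of all annotated genes at 1 TPM was not computed. Nop56 and Nop58 are themselves hosts. Snord110 and Snord57 in Nop56 summed to 17.2 and 27.9 counts in the second table, and Snord70 and Snord11 in Nop58 to 9 and 5.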

How the data were processed

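RNA of 2 libraries was analysed from the tables the authors deposited. According to notes the authors deposited, an alignment to GENCODE M21 transcripts (mm10) gave the gene and first transcript tables, while reads and a transcript index gave the second; the tools and their versions were not given in the sources used here. Expected counts (estimated reads, not whole) and TPM were used as deposited by the authors. Entries outside the annotation were left out. Members and lists were chosen with earlier results of these data known. The host was the same-strand gene of highest mean TPM with an intron containing the member; ratios to it used a pseudocount of 0.01 TPM. Counts, rounded, were scaled by TMM in edgeR 4.0.16, with DESeq2 1.42.0 size factors as an alternative (R 4.3.3); with 1 group no test was run. Genes were named by rank of counts, TPM and both ratios (12, 5 and 3 each way), by fixed lists and by hosts with 4 or more members. As the gene table left 4 members, the rule was applied to the second table too. Members outside the rule (Snord2, Snord78, Snord95, Snord96a, Snord55, Snord43, Snord47, Snord49a, Snord50a, Snord50b, Snord64, Snord65, Snord66, Snord73a, Snord91a, Snord99, Snord107, and those of Nop56 and Nop58) were named after their values were seen. The ratio step was tested on simulated data. Python 3.11.15, pandas 2.3.3, scipy 1.17.1 and Biopython 1.88 (global alignment) did the rest.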

Additional observations from a re-analysis of the deposited data

How the results depend on the processing

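No paired analysis was possible because the libraries form 1 group. With the second transcript table, 10 counts in each library were reached by 32 members rather than 4, their share of counts was 0.0369% rather than 0.0407% and of TPM 1.28% rather than 11.04%, the median log2 ratio to the host was 1.49 rather than 10.03 (1.45 for members overlapping no exon, an alternative chosen after seeing the data), the median replicate log2 ratio was 0.047 rather than -0.15, and 6 rather than 0 members were past 2-fold. Without the ribosomal DNA copy genes in the total the share of counts was 0.0512%. The share of TPM was 10.04% by posterior mean TPM and 0.605% with annotated lengths. The median log2 ratio to the host was 4.34 per annotated length, 6.42 for the 2 members overlapping no exon, and reversed to -3.92 over all hosted members with log2(TPM + 1), which keeps those at 0. With total counts the median replicate log2 ratio was -0.035 while that of all genes was 0.13, and with no filter, which adds Snord118, it was -0.23. Leaving out each library gave 4 members, 0.0400% to 0.0414% of counts, 10.9% to 11.2% of TPM and a median log2 ratio to the host of 9.85 to 10.16. The other 12 alternatives moved values by less than the spread between libraries, replicate ratios by less than 0.005 and counts by less than 1.5 times. Depth limits the shorter members: for Snord73a, at 19 and 5 counts in replicates 2 and 1, the counting interval of the log2 replicate ratio ran from -0.020 to 3.23.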
